A study of Mus musculus with 7 samples.

Results

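Plasmacytoid dendritic cells (pDCs) were examined in single-cell RNA sequencing of mouse bone marrow. They were picked by their own transcripts: a cell was taken when it had at least 1 UMI of Siglech, at least 3 UMIs of Siglech, Ccr9 and Cox6a2 together, and none of the T cell gene Cd3e or the B cell gene Ms4a1. A UMI (unique molecular identifier) counts 1 captured transcript. The rule took 786 of 54669 kept cells, which is 1.44%, out of 78720 barcodes deposited. Kept cells had at least 300 genes and under 10% mitochondrial UMIs, which removed 6928 and 15115 barcodes, and the lower-UMI copy of 2078 barcodes shared by 2 libraries was dropped. Because counts of 5 genes chose the cells, the levels of Siglech, Ccr9, Cox6a2, Cd3e and Ms4a1 are descriptions only, and no test was made of the gated cells against other cells.

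pDCs are dendritic cells that arise in the bone marrow and patrol blood and lymphoid tissue. They sense viral nucleic acids in endosomes through Toll-like receptors and can answer with large amounts of type I interferon. Their identity depends on the transcription factor TCF4 (E2-2), which holds down the conventional dendritic cell programme driven by ID2, and they share part of their gene programme with early B lineage cells.

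The study, whose title concerns inflammation and plasticity in myeloid transformation, profiled unfractionated marrow of spine, hips, femur and tibia after red cell lysis. Cells of several samples were marked with hashtag antibodies and run together on the 10x Genomics 3' v3 platform. There were 7 libraries, which by their titles form 4 pools, and 20 hashtag samples. HRO.5 and HRO.6 are the TET2-mutated chronic samples of the series text and are called the chronic group here. HRO held HRO.7 to HRO.12 (6 samples), WTO held 4, HRY held 3 and WTY held 3. The samples HR.7 and HR.AE stood alone. The prefixes are not spelled out in the labels and are used only as names, and the labels give no strain, age or treatment for any group. Nothing in the labels ties a hashtag to its own animal, and a p-value here reflects only how much the hashtag samples vary, part of which may be technical.

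Library totals lay between 25343305 and 95553827 UMIs. The gated cells had a median of 4517.5 UMIs (528 to 37034) and 1912.5 genes, against a median of 4797 UMIs for all kept cells. Of them 603 carried 1 hashtag, 150 were hashtag doublets (19.1%, against 16.8% of kept cells), 32 carried none and 1 had no hashtag reading. Of the member barcodes 17 were also seen in another library, and 0 were gated in more than 1. RNA of other cell types was measurable in the gated cells: 16 neutrophil genes summed to 36787 CPM (counts per 1000000 UMIs) in gated cells and 134366 CPM in the rest. That sum differed between pools, at 107379 CPM in WBM_1, 17294 CPM in WBM_2, 13725 CPM in WBM_3 and 49069 CPM in WBM_4. These pool values include hashtag doublets and cells without a hashtag, which the sample comparisons below left out. In cells with 1 hashtag of WBM_4 the sum was lower. It was 14942 CPM in HRO.11, 3323 CPM in HRO.12, 6165 CPM in WTO.5 and 3864 CPM in WTO.6. The part of this RNA in the results below was not tested. In the gated cells 12 B lineage genes summed to 131 CPM, against 312 CPM in the rest, and 12 T or NK genes to 193 CPM, against 365 CPM in the rest, with Cd3e and Ms4a1 at 0 by construction.

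Bst2 and Tcf4, the defining genes that the rule did not use, were found in nearly all gated cells. Bst2 encodes the membrane protein tetherin (PDCA-1), the usual sorting marker of mouse pDCs, and had 2409 CPM in gated cells and 123 CPM in the rest. Tcf4 had 1790 CPM in gated cells and 62.1 CPM in the rest. A UMI of Bst2 was present in 99.4% of gated cells and one of Tcf4 in 98.2%, so the name pDC was kept. Comparison gates were also drawn, all lacking Siglech by construction: conventional dendritic cells (cDCs, 694 cells), monocytes (9652 cells) and B lineage cells (3879 cells). To set shares side by side at equal depth, cells were thinned to 1500 UMIs and shallower cells left out. That kept 755 gated cells (31 were too shallow), 683 cDCs, 9523 monocytes and 2474 B lineage cells, so 1405 B lineage cells are not in the thinned shares. After thinning Bst2 was seen in 92.3% of gated cells, 24.7% of cDCs, 21.8% of monocytes and 15.7% of B lineage cells. Tcf4 was seen in 87.9% of gated cells, 13.2% of cDCs, 10.0% of monocytes and 31.4% of B lineage cells.

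The threshold of 3 UMIs lay on a gradient. The summed count of the 3 gate genes had a median of 13 UMIs in gated cells, with quartiles of 7 and 22. Just inside, 40 cells had a sum of 3, and their Bst2 stood at 1501 CPM and Tcf4 at 794 CPM. Just outside, 60 cells had a sum of 2, with Bst2 at 1289 CPM and Tcf4 at 695 CPM, and 178 cells had a sum of 1, with Bst2 at 443 CPM and Tcf4 at 242 CPM. The 515 cells with sums of 9 or more had 2636 CPM of Bst2 and 2133 CPM of Tcf4. The cells at 2 UMIs thus lay nearer to those at 3 than to those at 1 in both genes. The rule for T and B cell genes left out 20 further cells with Siglech.

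Siglech (ENSMUSG00000051504, chr7:55768178-55778925, plus strand, mm10) encodes a sialic acid binding lectin that signals through DAP12 and lowers interferon output. It had 1438 CPM over all gated cells and lay between 995 CPM in WBM_1 and 2225 CPM in WBM_3. Ccr9 (ENSMUSG00000029530, chr9:123678439-123784330, plus strand), the receptor for the gut and thymus chemokine CCL25, had 431 CPM and lay between 242 CPM in WBM_1 and 604 CPM in WBM_3. Cox6a2 (ENSMUSG00000030785, chr7:128205435-128206387, minus strand), the heart and muscle isoform of a cytochrome c oxidase subunit, had 767 CPM. Its ubiquitous counterpart Cox6a1 was present as well, at 406 CPM in gated cells and 414 CPM in the rest. Levels are sums of counts over cells divided by summed UMIs, so cells with more UMIs weigh more.

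The 250 bases before the start of 4 genes are shown because these genes are among the 25 with the highest ratio of gated cells to the rest, below, and because E proteins such as TCF4 bind E-boxes. They were chosen after the values were seen, and come from RefSeq (GRCm38.p6), each read 5′ to 3′ on the strand of its gene. Capitals mark the E-box CAGCTG or CAGGTG, searched on both strands. The windows are chr7:55767934-55768183 for Siglech (plus strand), chr9:123766961-123767210 for Ccr9 (plus), chr8:71537473-71537722 for Bst2 (minus) and chr7:44225110-44225359 for Klk1 (plus), which is described below. Starts are those of RefSeq and can differ from the gene spans given here. The Ccr9 window lies inside its span, and the Siglech window overlaps the first bases of its span.
Siglech: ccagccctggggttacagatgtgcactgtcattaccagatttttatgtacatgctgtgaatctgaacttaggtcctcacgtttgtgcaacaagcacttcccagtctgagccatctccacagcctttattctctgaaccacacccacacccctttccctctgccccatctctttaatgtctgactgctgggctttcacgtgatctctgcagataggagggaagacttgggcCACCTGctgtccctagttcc
Ccr9: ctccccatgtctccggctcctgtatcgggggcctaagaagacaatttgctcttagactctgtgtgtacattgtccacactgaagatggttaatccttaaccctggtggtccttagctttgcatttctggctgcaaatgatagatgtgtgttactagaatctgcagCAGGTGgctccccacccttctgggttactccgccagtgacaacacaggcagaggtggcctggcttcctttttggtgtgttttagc
Bst2: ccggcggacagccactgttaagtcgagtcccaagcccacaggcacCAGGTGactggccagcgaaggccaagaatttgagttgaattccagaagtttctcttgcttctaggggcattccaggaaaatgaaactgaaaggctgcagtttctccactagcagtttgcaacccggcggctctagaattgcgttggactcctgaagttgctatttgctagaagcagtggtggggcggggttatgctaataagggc
Klk1: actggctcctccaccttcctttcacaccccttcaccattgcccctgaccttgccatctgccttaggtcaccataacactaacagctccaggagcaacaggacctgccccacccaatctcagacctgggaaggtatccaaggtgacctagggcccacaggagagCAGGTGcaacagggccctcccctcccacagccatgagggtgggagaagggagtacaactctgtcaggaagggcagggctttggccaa
Each window held 1 such E-box, and 27.4% of 27025 promoter windows of this length in the mouse table held at least 1. Of the 25 genes, 22 were not used by the rule, Bst2 and Klk1 among them, and of these 22 genes 16 had an entry in the table and 4 of these held an E-box. A match is a description of the letters and does not show binding.

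The 25 genes with the highest ratio of gated cells to the rest, among genes of at least 100 CPM, were led by Siglech and by Klk1. Klk1 (ENSMUSG00000063903, chr7:44225360-44229618, plus strand), a tissue kallikrein protease, had 223 CPM in gated cells and 0.216 CPM in the rest, and a UMI in 30.9% of gated cells. The kallikrein family has near-identical copies, so its count could hold reads of a relative. Receptors and surface proteins were on the list. Ptprf, a receptor phosphatase, had 103 CPM in gated cells and 0.335 CPM in the rest. Cd300c, an activating receptor, had 146 CPM in gated cells and 2.08 CPM in the rest, and Cd7, a lymphoid surface protein, had 327 CPM in gated cells and 10.1 CPM in the rest. Flt3, the receptor whose ligand drives dendritic cell development, had 201 CPM in gated cells, 124 CPM in cDCs and 12.9 CPM in monocytes.

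Other genes among the 25 act in metabolism and transport. Atp1b1, a sodium pump subunit, had 592 CPM in gated cells and 13.8 CPM in the rest. Upb1, a pyrimidine breakdown enzyme, had 170 CPM in gated cells and 4.45 CPM in the rest. Kmo, which acts in tryptophan breakdown, had 235 CPM in gated cells and 6.40 CPM in the rest, and Pltp, a phospholipid transfer protein, had 209 CPM in gated cells and 6.22 CPM in the rest. Lymphoid genes were on the list as well: Ly6d, a surface protein of early lymphoid cells, with 2459 CPM in gated cells and 1187 CPM in B lineage cells, and Dntt, the terminal transferase of antigen receptor rearrangement, with 154 CPM in gated cells and 46.7 CPM in B lineage cells. The cell cycle gene Ccnd1 had 388 CPM in gated cells and 142 CPM in cDCs.

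**Figure D1:**
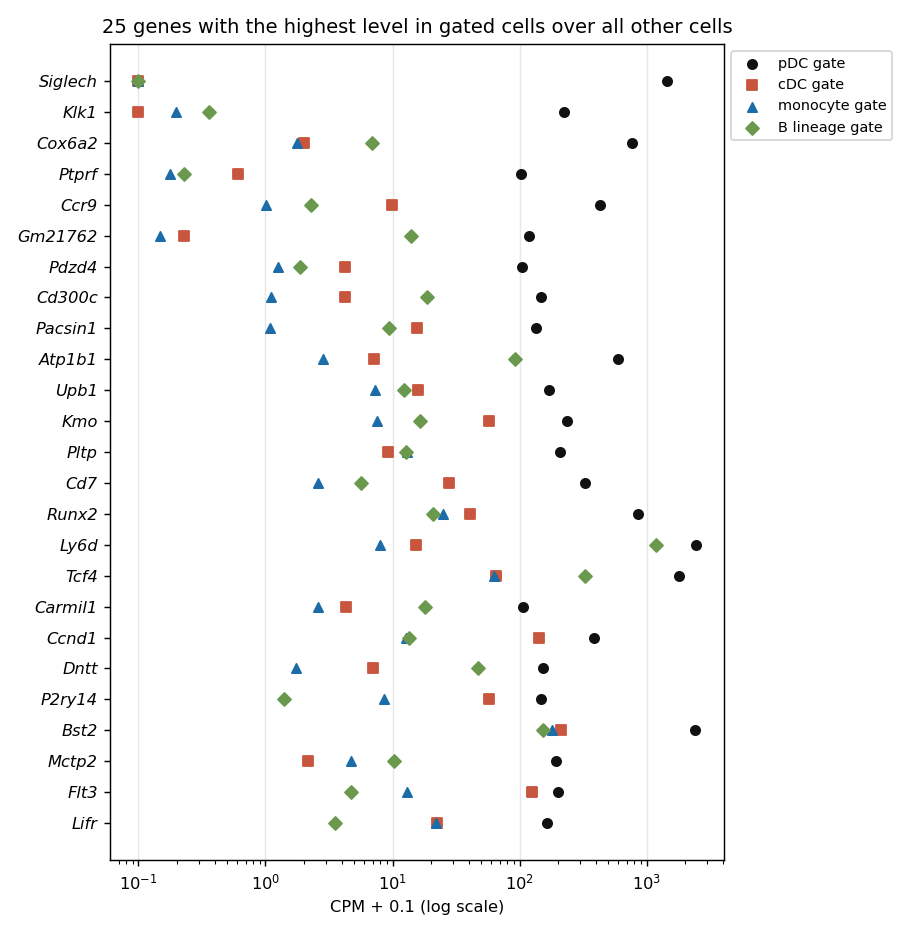
Level of the 25 genes with the highest ratio of gated cells to all other kept cells, in CPM plus 0.1 on a log axis, for the pDC, cDC, monocyte and B lineage gates. Each point is a sum over all cells of a gate, and the pDC gate has the highest level for every gene shown. Flt3 comes closest, in cDCs (201 CPM in gated cells, 124 CPM in cDCs).

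The transcription factors of pDC development named here were high, and Id2, Batf3 and Zbtb46 lay below their cDC levels. Of 24 factors on the list 10 were over 2-fold higher in gated cells than in the rest and 4 were over 2-fold lower. The share of all genes past 2-fold is not given here. This count and the 2-fold counts of lists below thus describe their members and do not set a list apart. Irf8, needed for pDC and cDC1 development, had 3108 CPM in gated cells, 1773 CPM in cDCs and 387 CPM in monocytes. Runx2, which acts in pDC exit from marrow, had 860 CPM in gated cells and 40.7 CPM in cDCs. Bcl11a, shared with B cell development, had 760 CPM in gated cells, 124 CPM in cDCs and 158 CPM in B lineage cells. Spib, an ETS factor of pDCs and B cells, had 215 CPM in gated cells and 198 CPM in B lineage cells, but 5.51 CPM in cDCs. Id2, the inhibitor of E proteins in cDCs, had 48.1 CPM in gated cells and 891 CPM in cDCs. Batf3, of the cDC1 lineage, had 1.70 CPM in gated cells and 166 CPM in cDCs, and Zbtb46, which marks cDCs, had 5.93 CPM in gated cells and 48.0 CPM in cDCs. The list of 14 cDC markers, which holds both, was mixed. Of them 6 were over 2-fold higher in gated cells than in the rest and 6 were over 2-fold lower. They summed to 716 CPM in gated cells and 484 CPM in the rest. The sum was 2338 CPM in cDCs, whose gate used Xcr1, Clec9a and Cd209a of this list.

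Of the 26 matched nucleic acid sensing genes 11 were over 2-fold higher in gated cells than in the rest and 4 were over 2-fold lower. Tlr7, the sensor of single-stranded RNA, had 51.3 CPM in gated cells, 3.46 CPM in cDCs and 14.2 CPM in monocytes. After thinning it was seen in 10.3% of gated cells, 0.732% of cDCs and 3.34% of monocytes (25.7% of gated cells before thinning). Tlr9, the sensor of unmethylated DNA, was sparse, at 3.39 CPM in gated cells and 0.534 CPM in the rest. Tlr3, the sensor of double-stranded RNA in cDC1s, had 0.212 CPM in gated cells and 145 CPM in cDCs. Of the chaperones that bring these receptors to endosomes, Unc93b1 had 463 CPM in gated cells and 165 CPM in the rest, and the transporter Slc15a4 had 68.2 CPM in gated cells and 23.7 CPM in the rest. Irf7, the factor that switches on interferon genes, had 76.7 CPM in gated cells and 33.2 CPM in the rest, and Tmem173 (STING) had 127 CPM in gated cells and 36.0 CPM in the rest.

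Interferon transcripts themselves were rare, and all those in gated cells came from 1 pool. Over 20 type I and III interferon genes, 12 of 786 gated cells had a UMI (1.53%, exact Clopper-Pearson 95% interval 0.791% to 2.65%), with 37 UMIs in all and at most 8 in a cell. The share was 0.200% in the rest (108 of 53883), 0.720% in cDCs, 0.363% in monocytes and 0.0516% in B lineage cells, with median depths of 4517.5 UMIs in gated cells, 8151.5 in cDCs, 8327 in monocytes and 2418 in B lineage cells. Intervals and limits cover counting error only. All 12 cells lay in WBM_2: 8 of 104 were in HRO.7 (7.69%, 3.38% to 14.6%), 2 of 29 in HRO.8 (6.90%, 0.846% to 22.8%) and 2 were hashtag doublets. In HRO.9 none of 107 gated cells had one, which allows a share of up to 2.80% by a limit of 3 counts and of 3.39% by the exact interval. In WTO.4 it was none of 65, which allows up to 4.62% by 3 counts and 5.52% by the exact interval. Among all other cells of the same samples the shares were 0.958% in HRO.7, 0.606% in HRO.8, 0.169% in HRO.9 and 0.0295% in WTO.4. The other cells of HRO.7 and HRO.8 were thus also above those of HRO.9 and WTO.4. Thinned to 1500 UMIs the gated shares were 1.92% in HRO.7 and 3.45% in HRO.8. The gated UMIs fell on Ifna2 (15), Ifna16 (10), Ifna1 (8), Ifna5 (2), Ifna6 (1) and Ifnb1 (1), and the rest had 65 of Ifnb1 and 35 of Ifna2. The Ifna genes are near-identical copies, so the split among them is uncertain.

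Genes that answer to type I interferon went both ways. Of 33 measured, 7 were over 2-fold higher in gated cells than in the rest and 14 were over 2-fold lower. Their summed level was 6147 CPM in gated cells, 3156 CPM in cDCs, 4275 CPM in monocytes, 1973 CPM in B lineage cells and 2496 CPM in the rest, and the sum was above that of the rest in all 4 pools. The pDC marker Bst2 is on this list. Its share of the sum was 2409 CPM in gated cells, 212 CPM in cDCs, 180 CPM in monocytes and 153 CPM in B lineage cells. The order of gated cells and monocytes in the sum rests on Bst2. Stat2, which carries the interferon signal, had 130 CPM in gated cells and 33.4 CPM in the rest, and Ly6e, an antiviral surface protein, had 1846 CPM in gated cells and 878 CPM in the rest. Rtp4 had 4.87 CPM in gated cells and 29.0 CPM in the rest, and Oas2, a sensor of double-stranded RNA, had 2.54 CPM in gated cells and 12.7 CPM in the rest. Both chains of the receptor were higher: Ifnar1 had 197 CPM in gated cells and 35.4 CPM in the rest, and Ifnar2 had 219 CPM in gated cells and 70.1 CPM in the rest. The interferon gamma receptor chain Ifngr1 ran the other way, with 44.7 CPM in gated cells and 134 CPM in the rest.

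Among other receptors, Il7r, the interleukin 7 receptor of lymphoid cells, had 198 CPM in gated cells, 2.05 CPM in cDCs and 65.2 CPM in B lineage cells. Cxcr3, a receptor for inflammatory chemokines, had 35.6 CPM in gated cells and 3.69 CPM in the rest. Csf1r and Kit, receptors of myeloid and early progenitor cells, were lower: Csf1r had 35.8 CPM in gated cells and 66.8 CPM in the rest, and Kit had 21.2 CPM in gated cells and 81.0 CPM in the rest. Signalling and receptor genes of B cells were split. Blnk, an adaptor of the B cell receptor, had 107 CPM in gated cells and 110 CPM in B lineage cells, while Cd79a, a chain of that receptor, had 9.32 CPM in gated cells and 1486 CPM in B lineage cells. Iglc3, a lambda light chain segment with near-identical copies, was seen after thinning in 31.1% of gated cells, 0.732% of cDCs, 0.399% of monocytes and 32.6% of B lineage cells. Ighm and Igkc were widespread at this depth: Igkc was seen in 39.3% of gated cells, 20.4% of cDCs and 15.4% of monocytes. Pax5, the factor that commits B cells, had 2.33 CPM in gated cells and 253 CPM in B lineage cells.

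Antigen presentation genes lay below cDC levels. Cd74, the invariant chain, had 2741 CPM in gated cells, 13306 CPM in cDCs and 2241 CPM in monocytes. H2-Eb1, a class II beta chain, had 569 CPM in gated cells, 4624 CPM in cDCs and 616 CPM in monocytes. Costimulatory genes were at low levels, with Cd80 at 1.70 CPM, Cd86 at 6.36 CPM and Cd40 at 4.45 CPM in gated cells. Il12b, which encodes p40 of interleukin 12, had no UMI in gated cells, whereas Il12a, for p35, had 19.9 CPM in gated cells and 3.38 CPM in the rest. Axl, a marker of transitional dendritic cells, had 1.70 CPM in gated cells and 9.87 CPM in cDCs, and Siglec1, of the same list, had no UMI. Of the genes that set or remove DNA methylation, Tet1 had 24.6 CPM in gated cells and 3.51 CPM in the rest, Dnmt3a had 61.9 CPM in gated cells and 24.0 CPM in the rest, and Tet2 had 82.4 CPM in gated cells and 49.6 CPM in the rest. Hsp90b1, an endoplasmic reticulum chaperone of Toll-like receptors, had 1036 CPM in gated cells and 504 CPM in the rest.

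Gated cells with cell cycle transcripts differed from the others in their pDC genes. A UMI of Mki67 or Top2a, which are made in dividing cells, was found in 273 of 786 gated cells (34.7%). Thinned to 1500 UMIs the share was 25.7% in gated cells, 33.5% in cDCs, 38.4% in monocytes and 32.3% in B lineage cells, and by pool it was 18.0% in WBM_1, 25.4% in WBM_2, 36.4% in WBM_3 and 34.1% in WBM_4. A UMI does not by itself show that a cell was cycling. The 273 cells had a median of 8190 UMIs, against 3746 UMIs for the other 513, and 27.8% of them were hashtag doublets, against 14.4% of the others. Since the same counts define and describe these cells, the following values are descriptions.

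Of 26 pDC surface and lineage genes, 23 were lower in the Mki67 or Top2a cells in all 4 pools and none was higher in all 4. Over all 283 listed genes with at least 50 CPM in either set of cells, 128 were lower in all 4 pools and 69 were higher in all 4. Klk1 had 39.1 CPM in Mki67 or Top2a cells and 477 CPM in the others. The coreceptor Cd4 had 10.2 CPM in Mki67 or Top2a cells and 84.6 CPM in the others, and Iglc3 had 63.6 CPM in Mki67 or Top2a cells and 475 CPM in the others. Tcf4 had 1178 CPM in Mki67 or Top2a cells and 2633 CPM in the others, a smaller ratio than those 3 genes. Siglech had 777 CPM in Mki67 or Top2a cells and 2348 CPM in the others, but the rule asks for a UMI of it in every cell. Ccr9 had 181 CPM in Mki67 or Top2a cells and 776 CPM in the others, and Tlr7 had 20.5 CPM in Mki67 or Top2a cells and 93.7 CPM in the others. Ly6d had 2531 CPM in Mki67 or Top2a cells and 2360 CPM in the others, and Dntt had 139 CPM in Mki67 or Top2a cells and 175 CPM in the others. Of 9 measured monocyte genes 3 were higher in all 4 pools and 2 lower, and of 4 measured progenitor genes 1 was higher. The neutrophil list had 9 of 16 higher in all 4 pools and 1 lower. Of its members, named after their values were seen, the granule protease Prtn3 had 545 CPM in Mki67 or Top2a cells and 63.5 CPM in the others, and the peroxidase Mpo had 164 CPM in Mki67 or Top2a cells and 40.8 CPM in the others. In cells with 1 hashtag only (188 and 415 cells), Klk1 had 37.9 CPM in Mki67 or Top2a cells and 532 CPM in the others, and Mpo had 143 CPM in Mki67 or Top2a cells and 36.4 CPM in the others. The order was therefore the same without hashtag doublets. The part of depth, doublets of 1 hashtag and free RNA in these values was not tested.

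**Figure D2:**
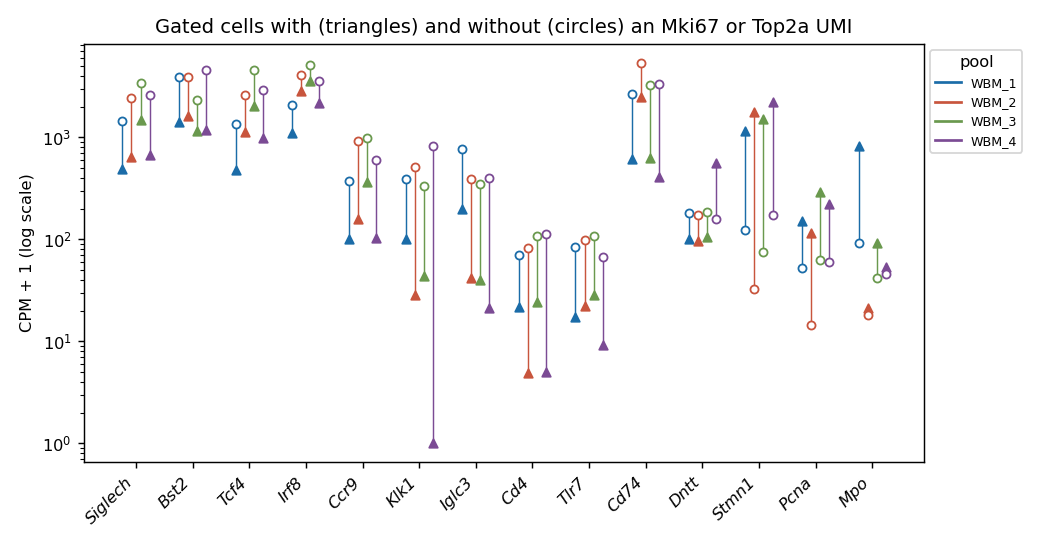
Levels of 14 genes in gated cells with a UMI of Mki67 or Top2a (triangles) and in all other gated cells (circles), by pool, in CPM plus 1 on a log axis. Klk1, Cd4 and Iglc3 lie lower in the triangles in every pool.

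The share of gated cells among the kept cells with 1 hashtag (43062 in all) varied from sample to sample within every group. In the chronic group it was 2.24% in HRO.5 and 0.636% in HRO.6. In HRO it was 1.88%, 1.16%, 2.21%, 0.229%, 0.320% and 0.409% in HRO.7 to HRO.12, and in WTO it was 2.44%, 1.88%, 0.803% and 1.11% in WTO.3 to WTO.6. The HRO samples of WBM_2 lay within the WTO range and those of WBM_3 and WBM_4 below it, and the groups overlapped. In HRY it was 1.55%, 0.452% and 0.414% in HRY.4 to HRY.6, and in WTY it was 1.68%, 0.431% and 0.591% in WTY.3 to WTY.5. HRY and WTY overlapped too, with the highest sample of each in WBM_1. HR.7 had 2.78% (78 of 2803 cells, 2.21% to 3.46%), and HR.AE had none of 1401 cells, which allows up to 0.214% by 3 counts and 0.263% by the exact interval. The cells of HR.AE were the deepest, with a median of 16290 UMIs.

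No comparison of shares passed the exact two-sided permutation test. HRO averaged 1.04% ± 0.857 (SD, n = 6) and WTO 1.56% ± 0.742 (n = 4), a difference of -0.525 percentage points (exact permutation p = 0.324, smallest possible 0.00476). Within WBM_2 the difference was -0.132 (3 HRO samples, 1 WTO sample) and within WBM_4 it was -0.594 (2 and 2). HRY averaged 0.804% ± 0.643 (n = 3) and WTY 0.902% ± 0.682 (n = 3), a difference of -0.0977 points (exact permutation p = 0.600, smallest possible 0.1). That test could not fall under 0.05. The remaining differences were 0.231 points for HRO against HRY (exact permutation p = 0.714), 0.658 for WTO against WTY (p = 0.286) and 0.403 for chronic against HRO (p = 0.5). The smallest possible p was 0.0119, 0.0286 and 0.0357 for these 3, and the adjusted p over the 5 comparisons was 0.714 for each. These tests do not take the pool into account. Within WBM_3, the pool that holds HRO and HRY, their difference had the other sign, at -0.204 points (0.229% in HRO.10 and a mean of 0.433% in 2 HRY samples). HRY minus WTY was -0.137 within WBM_1 (1 sample each) and -0.0781 within WBM_3 (2 each), and WTO minus WTY was 0.758 within WBM_1 (1 each). The share also differed between pools: over all kept cells, whatever their hashtag, gated cells were 1.65% in WBM_1 and 0.713% in WBM_4. Fewer cells and fewer detected transcripts per cell cannot be told apart in such shares, since a cell must reach 3 UMIs.

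**Figure D3:**
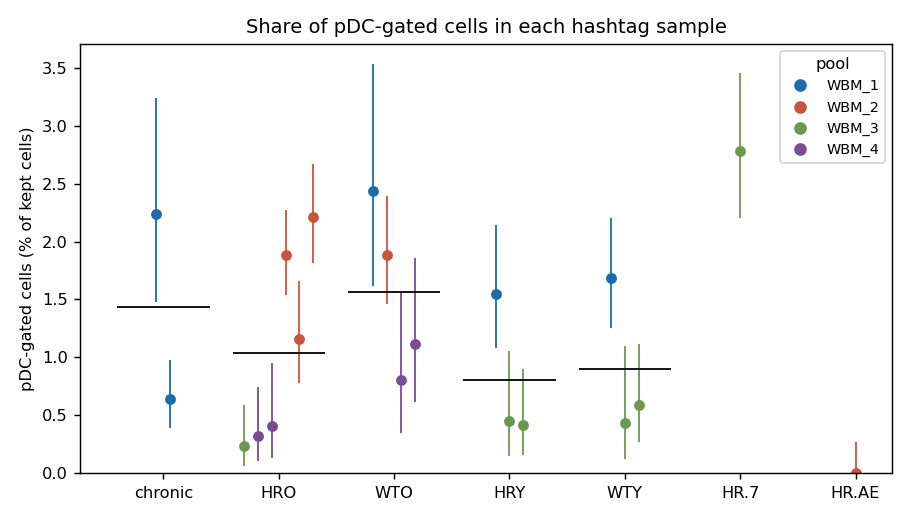
Share of gated cells among kept cells with 1 hashtag, in percent, for each hashtag sample, with exact 95% intervals, coloured by pool, with the group mean as a black line. Samples spread widely inside each group, HR.7 is the highest at 2.78% and HR.AE has none.

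Gene levels were compared between groups over samples with at least 10 gated cells: HRO.7, HRO.8 and HRO.9 for HRO, WTO.3, WTO.4 and WTO.6 for WTO, and HRO.5 and HRO.6 for the chronic group. With pool as a term the comparison of HRO with WTO rests on WBM_2, where HRO had 3 samples and WTO had WTO.4 alone, and that sample is assumed to vary like the others (3 residual degrees of freedom). HRO.9 was above 10 CPM of the Y-linked gene Ddx3y over all its cells, and HRO.7, HRO.8 and WTO.4 were under it. Of 3830 genes tested 3 changed (0.0783% of all tested), 2 higher (0.0522%) and 1 lower (0.0261%) in HRO, in the quasi-likelihood test of edgeR, with p adjusted by Benjamini-Hochberg over all genes. At an unadjusted p under 0.05 there were 297 genes. The median log2 fold change over all genes was 0.00.

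Fos and Cd69 rose and Klk1 fell. Fos (ENSMUSG00000021250, chr12:85473890-85477273, plus strand), an immediate early transcription factor, had 250, 221 and 300 CPM in HRO.7, HRO.8 and HRO.9, against 14.9 CPM in WTO.4. Its UMIs numbered 202, 58 and 203 in those HRO samples and 5 in WTO.4, and it was seen in 62.5%, 62.1% and 64.5% of gated cells in HRO and 6.15% in WTO.4. The log2 fold change was 4.10 ± 0.47 (SE, adjusted p = 0.0141, edgeR). Cd69 (ENSMUSG00000030156, chr6:129267325-129275436, minus strand), an early activation receptor that retains cells in tissue, had 177, 198 and 140 CPM in the HRO samples and 17.9 CPM in WTO.4 (log2 fold change 3.22 ± 0.46, adjusted p = 0.0315, edgeR). Klk1 had 199, 191 and 134 CPM in the HRO samples and 732 CPM in WTO.4 (-2.06 ± 0.28, adjusted p = 0.0315, edgeR). All 3 HRO samples lay on 1 side of WTO.4 for each gene.

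In WBM_4 the groups lay apart in the same direction for Fos and Cd69 and overlapped for Klk1. Fos had 750 and 780 CPM in HRO.11 and HRO.12, of 5 gated cells each, against 256 and 365 CPM in WTO.5 and WTO.6. Cd69 had 279 and 204 CPM in HRO.11 and HRO.12, against 114 and 41.7 CPM in WTO.5 and WTO.6. Both were higher in both HRO samples there, but on 5 to 14 cells a sample. The samples also differed in their cells. A UMI of Mki67 or Top2a was found in all 5 gated cells of HRO.12 and 1 of 5 in HRO.11. It was found in 1 of 8 in WTO.5 and 6 of 14 in WTO.6. Tcf4 had 1929 and 696 CPM in HRO.11 and HRO.12, against 3040 and 2854 CPM in WTO.5 and WTO.6. The part of such cells in the WBM_4 values was not tested. Klk1 had 600 and 0 CPM in HRO.11 and HRO.12, against 938 and 479 CPM in WTO.5 and WTO.6, so that the groups overlapped. In WBM_1 WTO.3 had no UMI of Fos or Cd69, and the chronic samples of that pool had 31.0 and 63.0 CPM of Fos, so the level moved with the pool too. Without HRO.7, or without HRO.8, no gene passed, and the adjusted p of Fos was then 0.126 and 0.156 (edgeR). The call of Fos was also lost without the pool term (1.35, adjusted p = 0.725, edgeR), as was that of Klk1 (-1.55, adjusted p = 0.124). Klk1 and Cd69 did not pass without cells of very high UMIs (adjusted p = 0.0797 for both, edgeR), nor did Cd69 with hashtags normalised within cells (adjusted p = 0.0565). Removing HRO.9, HRO.5 or HRO.6 gave 10, 15 and 15 genes, and without WTO.4 the comparison could not be estimated. DESeq2 called 8 genes, the 3 above among them.

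**Figure D4:**
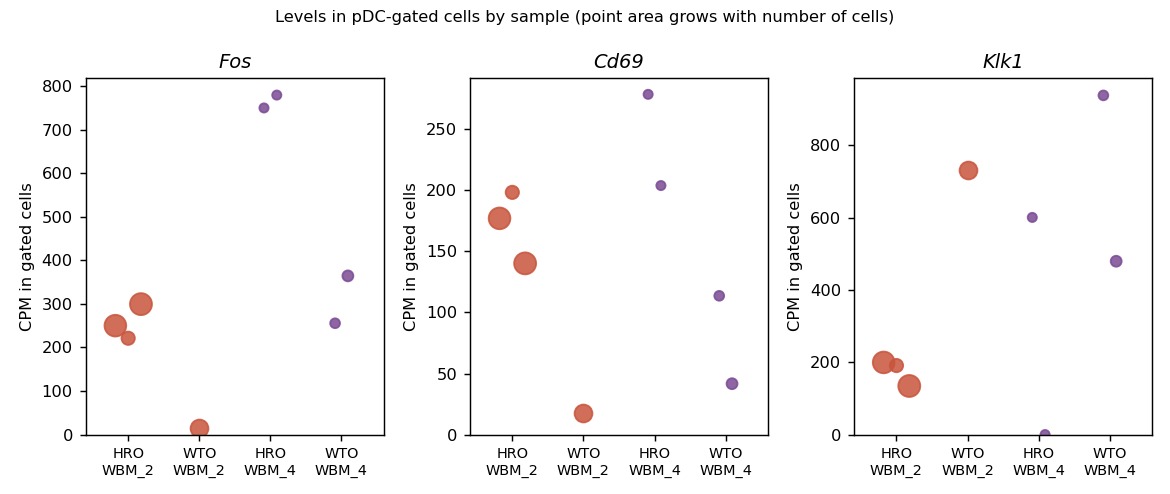
CPM of Fos, Cd69 and Klk1 in gated cells of each HRO and WTO sample, in WBM_2 (3 and 1 samples) and WBM_4 (2 and 2 samples), with larger points for more cells. In WBM_2 the HRO samples are higher in Fos and Cd69 and lower in Klk1 than WTO.4, and in WBM_4 Klk1 overlaps.

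The window before Fos is shown because Fos had the largest fold of the 3 genes that changed. It is chr12:85473640-85473889 on the plus strand (RefSeq, GRCm38.p6), and capitals mark TGACG, the core of the cAMP response element, searched on both strands.
Fos: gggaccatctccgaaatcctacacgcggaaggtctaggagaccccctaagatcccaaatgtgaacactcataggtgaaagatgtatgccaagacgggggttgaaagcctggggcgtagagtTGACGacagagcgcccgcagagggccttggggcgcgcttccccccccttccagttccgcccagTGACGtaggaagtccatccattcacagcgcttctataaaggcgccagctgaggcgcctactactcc
It held 2 matches, 129 and 66 bases before the start, and 17.9% of the 27025 windows held at least 1.

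Of 25 immediate early and stress genes 15 were tested, 2 passed (Fos and Cd69), 10 were positive and 5 negative, and the median log2 fold change was 0.50, beside 0.00 over all genes. Among the positive ones that did not pass were Fosb and Jun, named here after their values were seen. Fosb had 192, 122 and 182 CPM in the HRO samples and 20.9 CPM in WTO.4 (log2 fold change 3.01, adjusted p = 0.0647, edgeR). Jun had 758, 431 and 524 CPM in the HRO samples and 149 CPM in WTO.4 (1.96, adjusted p = 0.143, edgeR). Fos and Jun were also high in the monocytes of the same samples. Monocyte Fos was 522, 500 and 765 CPM in the HRO samples and 105 CPM in WTO.4 (log2 fold change 2.62, adjusted p = 0.0642, edgeR), and the difference between pDC and monocyte changes was 1.54 (adjusted p = 0.432, edgeR). For Cd69 that difference was 1.30 (adjusted p = 0.852, edgeR), so neither change was shown to be particular to pDCs.

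Klk1 was the pDC gene that passed. Of 26 surface and lineage genes tested, 1 passed, 18 were negative, and the median log2 fold change was -0.29. Cd4 had the lower fitted value without passing, with 24.8, 15.3 and 22.1 CPM in the HRO samples and 131 CPM in WTO.4 (-2.56, adjusted p = 0.0647, edgeR). Klk1 and Cd4 were also lower in cells with Mki67 or Top2a, described above. The share of such cells was 36.5%, 41.4% and 38.3% in HRO.7, HRO.8 and HRO.9 and 26.2% in WTO.4, and after thinning 24.0%, 31.0% and 29.5% in the HRO samples and 21.9% in WTO.4. The part of that share in the changes of Klk1 and Cd4 was not tested. Bst2 had 3063, 2358 and 2505 CPM in the HRO samples and 2946 CPM in WTO.4 (-0.14, adjusted p = 0.894, edgeR), so that the groups overlapped. Tcf4 had 1648, 1373 and 2094 CPM in the HRO samples and 2387 CPM in WTO.4 (-0.47, adjusted p = 0.770, edgeR). Of the gate genes, Siglech had 1191, 946 and 1742 CPM in the HRO samples and 2038 CPM in WTO.4, and was not tested.

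Among the remaining lists none had a member past the threshold in this comparison apart from Cd69, which is also on the activation list. Cell cycle genes were positive in 19 of 21, with a median log2 fold change of 0.995 and 10 at an unadjusted p under 0.05. Their summed level was 6736 to 7849 CPM in the 3 HRO samples and 1256 to 8061 CPM in the 3 WTO samples, so it overlapped across pools. Ube2c, which marks mitosis for protein breakdown, had 388, 259 and 376 CPM in the HRO samples and 74.7 CPM in WTO.4 (log2 fold change 2.22, adjusted p = 0.0647, edgeR). Class II genes were positive in 8 of 9 with a median of 0.56, interferon gamma response genes in 12 of 14 with a median of 0.76, and oxidative phosphorylation genes in 24 of 26 with a median of 0.40. Type I interferon-stimulated genes were negative in 10 of 11 with a median of -0.32. Neutrophil genes were negative in 14 of 16 with a median of -1.02, and their sum was 4901, 14001 and 7136 CPM in the HRO samples and 16739 CPM in WTO.4.

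Monocytes of the same samples gave a test of whether a change differed between cell types. Each sample was a block, and the quantity tested was the log2 fold change of HRO over WTO in pDCs minus that in monocytes. Of 8379 genes 36 passed (0.430%), 14 with a higher change in pDCs (0.167%) and 22 with a lower one (0.263%), with 551 at an unadjusted p under 0.05 (quasi-likelihood test of edgeR, Benjamini-Hochberg). Again WTO rests on WTO.4 in this contrast. The median over all genes was 0.01. The count was 78 without HRO.8, 138 without HRO.9, and 21 without WTO.6 or with at least 20 gated cells a sample.

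Of the 14 genes on the higher side 6 were on the cell cycle list. Of 21 tested on that list, 6 passed and all 6 were higher, 20 were positive, and the median was 0.78. Ube2c had 388, 259 and 376 CPM in pDCs of HRO and 74.7 CPM in pDCs of WTO.4, whereas in monocytes it had 218, 239 and 182 CPM in HRO and 382 CPM in WTO.4 (difference 2.99 ± 0.38, adjusted p = 0.000366, edgeR). In pDCs these HRO samples were thus all higher than WTO.4, and in monocytes all lower. In pDCs of WTO.4 the 25 UMIs of Ube2c lay in 7.69% of the 65 gated cells. In WBM_4 Ube2c had 42.9 and 1140 CPM in pDCs of HRO.11 and HRO.12, of 5 gated cells each. WTO.5 and WTO.6 had 369 and 385 CPM, so that the groups overlapped there. Ccnb2, a mitotic cyclin, had 113, 80.1 and 95.9 CPM in pDCs of HRO and 14.9 CPM in pDCs of WTO.4, and in monocytes 102, 105 and 105 CPM in HRO and 117 CPM in WTO.4 (difference 2.82 ± 0.54, adjusted p = 0.0194, edgeR). The 5 UMIs of Ccnb2 in pDCs of WTO.4 lay in 4.62% of gated cells. The spindle and kinetochore genes Cenpf, Cenpa, Tpx2, Ccnb1, Birc5, Cdca8 and Aspm passed too, with differences of 1.71 to 2.70. Upb1 also passed (2.05 ± 0.39, adjusted p = 0.0196, edgeR), with 223, 156 and 230 CPM in pDCs of HRO and 221 CPM in pDCs of WTO.4, against 7.63, 4.94 and 4.81 CPM in monocytes of HRO and 27.5 CPM in monocytes of WTO.4. Its difference lay in monocytes, while in pDCs the groups overlapped.

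Of the 22 genes on the lower side 4 were class II genes. Of 11 class II and antigen processing genes tested, 4 passed, all lower, 10 were negative and the median was -0.94. H2-Eb1 (ENSMUSG00000060586, chr17:34305867-34316674, plus strand) had 1428, 1347 and 233 CPM in pDCs of HRO and 475 CPM in pDCs of WTO.4, and in monocytes 1823, 1521 and 111 CPM in HRO and 71.2 CPM in WTO.4 (difference -2.66 ± 0.47, adjusted p = 0.0100, edgeR). HRO.7 and HRO.8 were high in both cell types and HRO.9 was low in both. In pDCs HRO.9 lay below WTO.4, so the groups overlapped there, and the fitted change was 1.09 in pDCs (adjusted p = 0.735) and 4.14 in monocytes (adjusted p = 0.377, edgeR). Cd74 had 6220, 4941 and 1361 CPM in pDCs of HRO and 2859 CPM in pDCs of WTO.4, and in monocytes 6485, 5524 and 406 CPM in HRO and 380 CPM in WTO.4 (difference -2.49 ± 0.49, adjusted p = 0.0221, edgeR). H2-Ab1 (-2.62) and H2-Aa (-2.57) passed as well.

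Of 30 type I interferon-stimulated genes 1 passed, 28 were negative and the median was -1.43, and of 26 interferon gamma response genes 2 passed, 22 were negative and the median was -1.49. Isg15, a ubiquitin-like product of interferon signalling, had 85.5, 49.6 and 56.1 CPM in pDCs of HRO and 80.7 CPM in pDCs of WTO.4, and in monocytes 181, 174 and 46.8 CPM in HRO and 22.9 CPM in WTO.4 (difference -2.70 ± 0.60, adjusted p = 0.0473, edgeR). The pDC groups overlapped, and all 3 monocyte samples of HRO were above WTO.4. Iigp1, a GTPase induced by interferon gamma, had 287, 317 and 16.2 CPM in pDCs of HRO and 53.8 CPM in pDCs of WTO.4, and in monocytes 423, 379 and 1.83 CPM in HRO and 3.15 CPM in WTO.4 (difference -4.34 ± 0.91, adjusted p = 0.0372, edgeR). HRO.7 and HRO.8 were the high samples of Iigp1 in both cell types, and HRO.9 was not. The gated cells with interferon transcripts and 1 hashtag also lay in HRO.7 and HRO.8. Of the other cells of HRO.9, 8 of 4724 had such a transcript. A link between these transcripts and Iigp1 was not tested.

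The windows before H2-Eb1 and Isg15 are shown because these 2 genes represent the class II and interferon groups. They are chr17:34305617-34305866 (plus strand) and chr4:156200819-156201068 (minus strand), from RefSeq (GRCm38.p6). Capitals mark CCAAT in H2-Eb1, the letters of the Y box of class II promoters, and the interferon-stimulated response element in Isg15, both searched on both strands.
H2-Eb1: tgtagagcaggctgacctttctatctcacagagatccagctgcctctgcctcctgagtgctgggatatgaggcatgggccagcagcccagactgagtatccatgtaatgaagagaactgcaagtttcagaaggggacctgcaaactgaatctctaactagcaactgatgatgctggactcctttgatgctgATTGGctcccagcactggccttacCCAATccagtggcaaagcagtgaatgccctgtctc
Isg15: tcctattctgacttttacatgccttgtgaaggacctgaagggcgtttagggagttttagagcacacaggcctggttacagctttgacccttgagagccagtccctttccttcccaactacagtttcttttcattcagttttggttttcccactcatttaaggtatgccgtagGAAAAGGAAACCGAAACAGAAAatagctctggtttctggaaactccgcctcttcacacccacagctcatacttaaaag
H2-Eb1 held 2 matches, 59 and 35 bases before the start, and Isg15 held 3 that overlap. Among the 27025 windows 34.5% held CCAAT and 3.04% held the response element.

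Other genes were on the lower side. Cd38, an ectoenzyme that breaks down NAD, had 60.7, 22.9 and 33.9 CPM in pDCs of HRO and 41.8 CPM in pDCs of WTO.4. In monocytes it had 68.0, 56.6 and 49.999 CPM in HRO and 2.57 CPM in WTO.4 (difference -4.55 ± 0.72, adjusted p = 0.00461, edgeR). Zfp36l1, which destabilises messenger RNA, differed by -3.40 ± 0.49 (adjusted p = 0.00148, edgeR), with 276, 134 and 252 CPM in pDCs of HRO and 167 CPM in pDCs of WTO.4, against 72.6, 66.0 and 136 CPM in monocytes of HRO and 6.58 CPM in monocytes of WTO.4. Mmp8, a neutrophil collagenase, differed by -5.43 ± 0.71 (adjusted p = 0.000367, edgeR), with 2.48, 0 and 2.95 CPM in pDCs of HRO and 65.7 CPM in pDCs of WTO.4, against 48.6, 46.2 and 288 CPM in monocytes of HRO and 96.1 CPM in monocytes of WTO.4. In pDCs of WTO.4 the 22 UMIs of Mmp8 lay in 3.08% of the 65 gated cells. The neutrophil sums of these pDC samples are given above, and their part in this difference was not tested. The immediate early genes Btg2 (-1.77), Klf2 (-1.48) and Jund (-1.46) were lower as well, 3 of 24 on that list, and of the pDC surface genes Lair1 (-1.81) and Ctsl (-1.95) were lower. Lair1, an inhibitory collagen receptor, had 464, 397 and 431 CPM in pDCs of HRO and 517 CPM in pDCs of WTO.4, against 111, 91.7 and 66.8 CPM in monocytes of HRO and 31.5 CPM in monocytes of WTO.4.

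**Figure D5:**
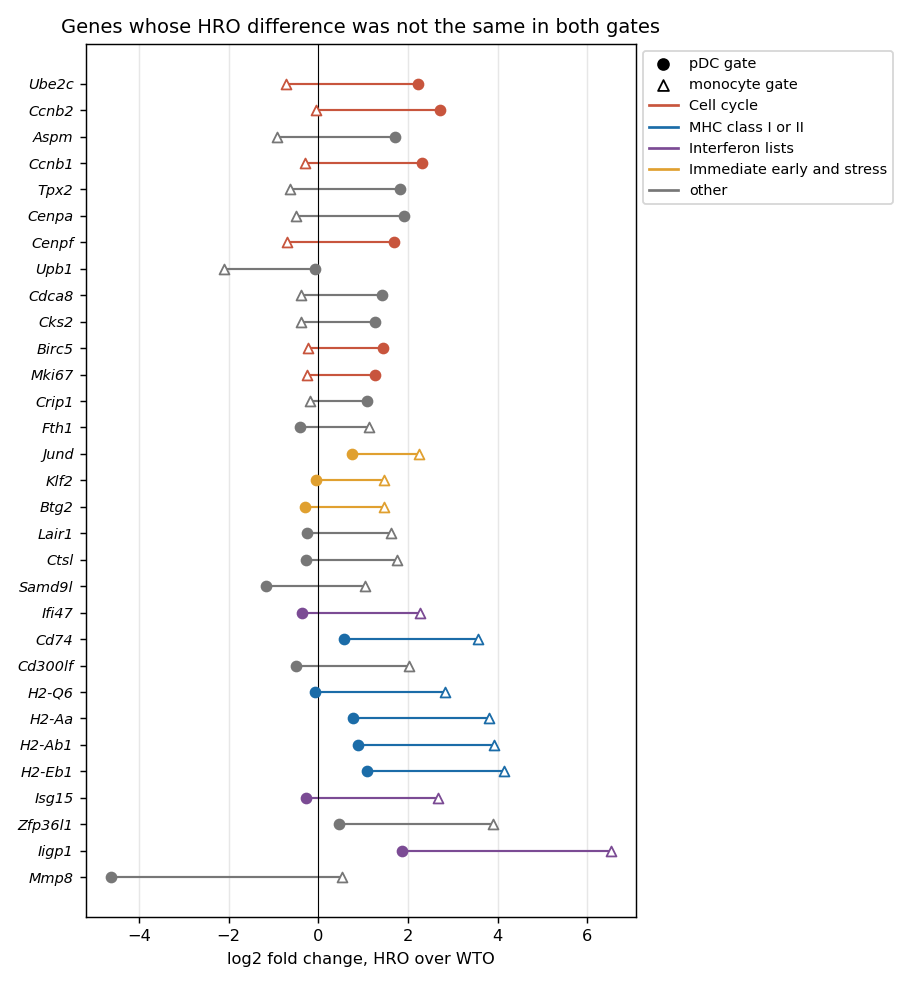
Fitted log2 fold change of HRO over WTO in pDCs (filled circles) and in monocytes (open triangles) of the same samples, for 31 of the 36 genes past the threshold. Cell cycle genes such as Ube2c are positive in pDCs and near or below 0 in monocytes. For class II genes such as H2-Eb1 the fitted change is larger in monocytes (4.14) than in pDCs (1.09), though neither change of H2-Eb1 passed by itself.

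Between the chronic group and HRO no gene of 3830 passed (0% of all tested, edgeR's quasi-likelihood test), with 186 at an unadjusted p under 0.05, and DESeq2 called 0. The groups share no pool, so the fit compares them through the WTO samples of WBM_1 and WBM_2, 1 each. Bst2 had 4073 and 2268 CPM in HRO.5 and HRO.6, against 2358 to 3063 CPM in the HRO samples (-0.15 on the log2 scale, adjusted p = 0.9999, edgeR). Tcf4 had 1533 and 567 CPM in the chronic samples, against 1373 to 2094 CPM in the HRO samples (0.07, adjusted p = 0.9999, edgeR). The chronic samples overlapped HRO in Bst2, and HRO.6 lay below HRO in Tcf4. HRO.6 also had 107171 CPM of summed neutrophil genes and HRO.5 had 43737 CPM, against 4901 to 14001 CPM in HRO. All 16 neutrophil genes were positive, with a median log2 fold change of 2.78 beside 0.07 over all genes, cell cycle genes were positive in 20 of 21 (median 1.51) and class II genes were negative in 7 of 9 (median -1.11). Without the pool term 75 genes passed, among them the neutrophil genes Mpo, Elane and Prtn3. In the test against monocytes 0 of 8379 genes passed (0%, edgeR), with 426 at an unadjusted p under 0.05.

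With samples of at least 5 gated cells, 16 samples and 2359 genes entered, which brought WBM_4 into HRO against WTO. It also brought in HRO.12, whose gated cells all had a UMI of Mki67 or Top2a, and the part of this was not tested. In HRO against WTO 8 genes passed (0.339% of those tested, edgeR's quasi-likelihood test), 6 higher (0.254%) and 2 lower (0.0848%). Fos (2.13, adjusted p = 0.0237) and Cd69 (2.63, adjusted p = 0.0182) were among the higher ones, with Lsm2 and Magoh, which act in RNA processing, and Prtn3 and Ifitm1. Klk1 did not pass here (-1.76, adjusted p = 0.208). Ifitm1, an interferon-induced membrane protein, had 104, 153 and 36.9 CPM in HRO.7 to HRO.9 and 17.9 CPM in WTO.4, and 1072 and 420 CPM in HRO.11 and HRO.12 and no UMI in WTO.5 or WTO.6. It was higher in every HRO sample of both pools, but in WBM_4 on few cells. In HRO.11 and HRO.12 the 50 and 35 UMIs of Ifitm1 lay in 40% of 5 gated cells each. Those of Prtn3 were 48 and 133, in 20% and 60% of these cells. WTO.5 and WTO.6 had 8 and 14 gated cells. Rpgrip1, a gene of the pDC list, fell (-1.62, adjusted p = 0.0239, edgeR), with 225, 134 and 111 CPM in HRO.7 to HRO.9 and 448 CPM in WTO.4, and in WBM_4 with 107 and 120 CPM in HRO.11 and HRO.12, against 625.1 and 354 CPM in WTO.5 and WTO.6. Cd209a, a lectin of some cDCs, fell as well (-3.26, adjusted p = 0.0297, edgeR), with 3.72, 3.82 and 11.8 CPM in HRO.7 to HRO.9 and 74.7 CPM in WTO.4. In WBM_4 it had 0 and 11.998 CPM in HRO.11 and HRO.12, against 0 and 93.7 CPM in WTO.5 and WTO.6, so that the groups overlapped there.

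The other comparisons at 5 cells gave few genes. HRY against WTY gave 0 of 2359 (0%, edgeR), with 199 at an unadjusted p under 0.05. HRO against HRY gave 1 (0.0424%), Hbb-bs, with a log2 fold change of 4.57. Chronic against HRO gave 1 (0.0424%), again Hbb-bs, at -5.00. WTO against WTY gave 3 (0.127%), Hbb-bs, Hba-a1 and Hba-a2, all higher in WTO. These are globin genes of red cells. Hbb-bs had 21124 CPM in gated cells of WTO.3 and 2.99 to 114 CPM in the other WTO samples, and 479 CPM in WTY.3, the WTY sample of its pool. It had 0 to 107 CPM in the HRO samples, 127 to 734 CPM in HRY, and 527 and 405 CPM in HRO.5 and HRO.6. The fitted signs of HRO against HRY and of chronic against HRO thus ran against these levels. The fit links these groups through WTO.3, and without it HRO against HRY and WTO against WTY could not be estimated. WTO against WTY gave 0 genes without WTY.3 and 5 without HRO.5, HRO.6 or HRO.11, HRO against HRY gave 0 without HRO.11 or WTO.6, and HRY against WTY gave 19 without HRO.11.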

How the data were processed

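Deposited values were raw UMI counts per gene and barcode, as the authors' Cell Ranger output gives them (3.0.0 for WBM_1 and 3.1.0 for the other libraries, per the file headers), with hashtag counts beside them. The submitters' processing notes name bcl2fastq, Cell Ranger, Seurat and mm10. The gene annotation is not given in the sources used here. Gene positions are those of GENCODE on the same build. The members and the gene lists were chosen with earlier results of these data known.

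Hashtags were assigned per library with HTODemux of Seurat 5.3.0 (quantile 0.99, centred log-ratio across cells), as the series text describes, and cells with 1 hashtag entered sample comparisons. Hashtag doublets were left out of sample comparisons and of values given for cells with 1 hashtag. They stayed in the comparison gates and in the levels, ratios and shares over all gated cells. No doublet caller was run. Comparison gates asked for at least 2 UMIs of Xcr1, Clec9a and Cd209a (cDC), 3 of Csf1r, Ccr2 and F13a1 (monocyte) or 3 of Cd79a, Cd79b and Ebf1 (B lineage). Counts were summed per hashtag sample, with at least 10 gated cells a sample, and tested with edgeR 4.0.16 (TMM, filterByExpr, group and pool as terms, adjusted p under 0.05). DESeq2 1.42.0 was an alternative, and so were other gates, filters, cell minimums, hashtag normalisation, Ddx3y status, thinning and leaving out samples. The gate genes were not tested. Shares were compared with an exact permutation test (scipy 1.17.1). Tested on simulated data made from the HRO against WTO samples, the fit recovered 14.8%, 80.0% and 100% of genes changed by 1, 2 and 4 on the log2 scale (3531 genes, 7 false calls), and for chronic against HRO it recovered 0%, 4.76% and 64.1% (3547 genes, 3 false calls).

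Named were, per comparison, the genes past the threshold with the largest change (up to 10 each way, mean level 50 CPM or more), up to 4 members of each list past it by smallest p, the 5 marker genes, and the 25 genes of highest ratio at 100 CPM or more. Genes near the threshold and those whose promoters are shown were chosen after their values were seen. Some genes measured are not reported here.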

Additional observations from a re-analysis of the deposited data

Results flagged for a closer look

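The change of HRO over WTO was not the same in gated cells and in monocytes of the same samples for 36 genes, by the test of the difference itself (edgeR), which rests on 1 WTO sample in the pool concerned. HR.7, a sample that entered no comparison, had 2.78% gated cells, the highest share of the 20 hashtag samples. Of 12 groups of values tested for a sample far from the others, none had one.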

How the results depend on the processing

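Chronic and HRO samples share no pool, WTO had 1 sample in the pool that decides HRO against WTO, and many samples had under 10 gated cells. The genes changed in HRO against WTO (3) were 70 without a filter on low counts, 8 with DESeq2, 1 with group alone, 8 with at least 5 cells, 5 with a gate of 4 UMIs, 7 with Ddx3y status as a term, 1 without cells of very high UMIs, and 0 to 15 without 1 sample. In chronic against HRO (0) they were 17 without a filter, 75 with group alone, 1 with at least 5 cells, and 0 to 1 without 1 sample. For pDCs minus monocytes they were 21 with at least 20 cells and 21 to 138 without 1 sample in HRO against WTO (36), and 0 to 18 in chronic against HRO (0). At 5 cells a sample, leaving 1 out gave 0 to 19 genes in HRY against WTY, 0 to 1 in HRO against HRY and 0 to 5 in WTO against WTY. Shares in cells thinned to 1500 UMIs differed by 0.152 points in HRY against WTY and -0.188 in HRO against HRY, the reverse of the values above. Without 1 sample the difference ran from -0.00492 to 0.602 in HRO against HRY and from -0.469 to 0.293 in HRY against WTY (0.0783 without HRY.5, 0.0975 without HRY.6). For chronic against HRO, Bst2 reversed to 0.54 with group alone, 0.64 with at least 5 cells and 0.16 without HRO.6 (from -0.48 over samples left out). Tcf4 reversed to -0.45 with group alone, -0.37 with hashtags normalised within cells, -0.12 with Ddx3y, -0.63 without HRO.5 and -0.02 without HRO.8 (to 0.60). The cause of these shifts was not tested.

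With the replicate number as a block in place of pool, WTO against WTY gave 0 genes at 5 cells a sample. Only 2 numbers (3 and 5) were shared, so pairing could not be checked, and the other comparisons shared fewer. Of the remaining results and alternatives, 432 stayed the same, and 63 for single genes no longer passed. For single genes and shares, the same means the same direction and side of the threshold. For counts of genes changed it means only a similar count. For marker levels it means a value within the SD between pools.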
